A study of Bos taurus with 36 samples.

Results

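This report describes 9 regulators of early kidney development, SIX2, EYA1, SALL1, PAX2, WT1, OSR1, CITED1, MEOX1 and FOXD1, in bovine fetal organs on Day 42 of gestation. They were chosen by symbol from the 35092 genes of the count table, 1 row for each symbol, with their levels in the gonads, heart and liver of these same fetuses already known. Levels in the gonads against the other organs are therefore given as a description, without a test. All 9 genes had counts in the organs and passed the filter on low counts in the gonads.

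The fetuses were 10 males carried by heifers that had received a Day 7 embryo either on Day 7 (group ET_D7) or on Day 9 (group ET_D9) of their cycle, and all were collected at the same gestational age of 42 days. RNA was sequenced from 9 hearts, 9 gonads labelled as fetal testicle, 8 livers and the blood of the 10 heifers. Fetuses are numbered here from 1, the lightest at 1.253 g, to 10, the heaviest at 1.690 g, and fetuses 1 to 5 were the ET_D7 group. Organ libraries came from a stranded mRNA kit and blood libraries from another stranded kit, so levels in blood are shown apart. No gonad library is present for fetus 2, no heart library for fetus 7 and no liver library for fetuses 6 and 7.

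The permanent kidney forms where an epithelial tube, the ureteric bud, grows into a cap of mesenchyme that holds the nephron progenitors. These cells renew themselves or turn into the epithelium of new nephrons, and SIX2, with EYA1 and SALL1, keeps them in the renewing state. A transient kidney, the mesonephros, lies beside the gonad in the fetus and shares several of these regulators. WT1 is also made by the somatic cells of the early gonad, and FOXD1 marks the stromal cells around the cap rather than the nephron progenitors themselves.

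Total counts per library ran from 22762065 to 39649051 in the gonads, from 20930367 to 35857434 in the heart, from 18231089 to 34454772 in the liver and from 26602415 to 40812354 in blood. Levels are CPM, read counts set to a common library total, scaled with the trimmed mean of M-values (TMM) over the 26 organ libraries. Some libraries held shared counts. In the gonads of fetuses 6 and 8, 90.8% of 9227 genes with at least 500 counts lay within 1% of a single ratio of 1.27, where Poisson counting of independent libraries would give 26.3%. Every one of the 9 regulators had a ratio of 1.26 to 1.275 between these gonads, so these libraries give a single measurement of each gene. In the livers of fetuses 1 and 2 the share was 33.1%, against 23.5% from counting, and fetus 2 was higher in all 5461 genes compared. The 143 other pairs of libraries within a group had shares of 2.0% to 11.2%, all below the share from counting. The gonads of fetuses 6 and 8 differed by less than the sampling noise. In the livers of fetuses 1 and 2 that held for part of the abundant genes only, since WT1 had 54 and 123 counts there and OSR1 0 and 26. Each pair was counted as 1 sample in every mean and SD, which leaves n = 8 gonads and n = 7 livers beside n = 9 hearts. Ranges and medians are over all libraries. The tests within the gonads fitted all 9 libraries, as if fetuses 6 and 8 were independent, so their p-values are not reliable. Refits that left both libraries out (weight) or counted them once (transfer groups) are given beside them, and these moved in both directions. Leaving both out also removes their shared measurement. Leaving both libraries out raised the number of genes called along a curve (spline) of fetal weight. Counting them once lowered the number called between transfer groups. Counts of 1 to 100 were even in 63.1% of cases in the gonads, 61.8% in the heart, 58.3% in the liver and 83.4% in blood, and the counting interval given below for PAX2 covers counting error only.

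For 7 of the 9 regulators, the lowest gonad lay above the highest heart and the highest liver, namely for SIX2, EYA1, SALL1, PAX2, WT1, MEOX1 and FOXD1. Over all 25095 genes with a count in the organs, 1607 had that separation (6.4%), and since the genes were chosen with these levels known, nothing is read from the difference. OSR1 overlapped between gonads and heart, and CITED1 was lowest in the gonads under this scaling. In bulk tissue, fewer cells of a type and less RNA per cell cannot be told apart.

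SIX2 is the transcription factor that holds nephron progenitors undifferentiated. Its level in the gonads ran from 29.0 CPM in fetus 4 through a median of 32.9 to 62.7 CPM in fetus 1, with a mean of 39.7 ± 11.4 CPM (SD, n = 8). In the heart it ran from 0 through a median of 0.0822 to 4.93 CPM, and in the liver from 0 to 0.759 CPM. The heart values rested on fetuses 2 and 3, with 82 and 86 counts, while each of the other 7 hearts had 9 counts or fewer. The mean gonad level was 43.3 times that of the heart and 119.9 times that of the liver, and the lowest gonad was 5.89 times the highest heart. Heart and liver levels overlapped.

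EYA1, a transcriptional coactivator and phosphatase that acts with SIX2 and its relatives, reached 125.9 ± 27.6 CPM in the gonads (SD, n = 8), from 84.3 in fetus 7 through a median of 117.2 to 171.9 CPM in fetus 3. Hearts ranged from 2.97 through 4.90 to 8.18 CPM, and livers from 0 through 0.528 to 2.89 CPM. The gonad mean was 23.8 times the heart mean and 110.4 times the liver mean.

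SALL1 is a zinc finger protein that works with SIX2 in the progenitors. It stood at 101.7 ± 16.6 CPM in the gonads (SD, n = 8), from 79.8 in fetus 1 through 103.4 to 133.4 CPM in fetus 3. The heart held 3.54 to 11.7 CPM with a median of 6.17, and the liver 1.53 to 4.70 CPM with a median of 3.80. SALL1 had at least 25 counts in every liver, so the order gonads, heart, liver rested on measured levels, although the 2 lower ranges overlapped.

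PAX2, a paired box factor of both the progenitors and the ureteric bud, was the most even of the 9 in the gonads at 114.8 ± 12.0 CPM (SD, n = 8), from 103.3 in fetus 8 through 107.5 to 138.5 CPM in fetus 3. The 9 hearts together held 3 PAX2 counts, 2 in fetus 2 and 1 in fetus 8, against 53974 in the 9 gonads. With so few heart counts, no ratio of gonads to heart is given. The livers held 38 counts in all, of which 20 were in fetus 9, and 4 of the 8 livers had none. The lowest gonad was 103.2 times the highest liver, the widest gap of the 9 genes.

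WT1, a zinc finger factor needed for both kidney and gonad, reached 130.7 ± 26.6 CPM in the gonads (SD, n = 8), from 88.5 in fetus 7 through 127.0 to 165.6 CPM in fetus 3. The heart had a median of 6.61 CPM and reached 9.97 CPM. The liver ranged from 0 in fetus 3 to 6.14 CPM in fetus 4, and the pair of livers counted as 1 sample differed for WT1, with 54 counts in fetus 1 and 123 in fetus 2. The gonad mean was 21.3 times the heart mean and 69.7 times the liver mean.

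MEOX1, a homeobox factor first known from somites and also found in nephron progenitors, had the narrowest separation of the 7. It stood at 28.6 ± 5.05 CPM in the gonads (SD, n = 8), from 22.4 through 25.2 to 37.0 CPM, and at 3.63 through 7.47 to 12.2 CPM in the heart. The lowest gonad was 1.83 times the highest heart. The liver had 0 to 0.942 CPM, with 4 of 8 livers at 0 counts.

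FOXD1, the stromal factor, stood at 61.0 ± 11.6 CPM in the gonads (SD, n = 8), from 46.3 in fetus 4 through 59.1 to 87.4 CPM in fetus 1. The heart ran from 0 to 1.67 CPM in fetus 3, where 60 of the 106 heart counts lay. The liver had 16 counts in all, and 5 of the 8 livers had none. The gonad mean was 146.5 times the heart mean and 605 times the liver mean.

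OSR1, an early factor of intermediate mesoderm that is also made in the developing heart, did not separate the gonads from the heart. Gonads ranged from 9.46 in fetus 4 through 16.1 to 21.2 CPM in fetus 7, and hearts from 10.2 in fetus 4 through 22.0 to 48.9 CPM in fetus 2. The heart mean of 23.4 ± 11.4 CPM (SD, n = 9) was 1.53 times the gonad mean of 15.3 ± 3.96 CPM (SD, n = 8), a difference within the spread of the hearts. This order depended on the scaling. With CPM of the plain library total, OSR1 averaged 24.7 in the gonads and 17.8 in the heart. That scaling moved the median log2 difference of 18034 genes between gonads and heart from 0.07 to 1.10, while DESeq2 size factors left it at 0.07. The number of separated genes was 7 under each of these scalings too. Livers held 0 to 3.88 CPM of OSR1.

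CITED1, a transcriptional coactivator that marks the least mature nephron progenitors in the mouse, had the opposite order. Gonads held 1.05 through 1.47 to 2.16 CPM, hearts 3.12 through 3.81 to 4.48 CPM and livers 24.4 through 37.2 to 69.6 CPM. None of the 3 ranges overlapped under this scaling. With CPM of the plain library total, gonads ran from 1.68 to 3.35 and hearts from 1.6 in fetus 2 to 4.22, so these overlapped, and the log2 ratio of gonad to heart shrank from -1.32 to -0.29. The liver stayed above both, at 17.1 to 58.4. The liver mean of 39.8 ± 14.9 CPM (SD, n = 7) was 25.99 times the gonad mean of 1.53 ± 0.366 CPM (SD, n = 8) and the heart mean, at 3.81 ± 0.394 CPM (SD, n = 9), was 2.49 times that of the gonads with TMM. Each gonad had 58 to 107 CITED1 counts, so the gene was measured there and not merely missed.

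**Figure D1:**
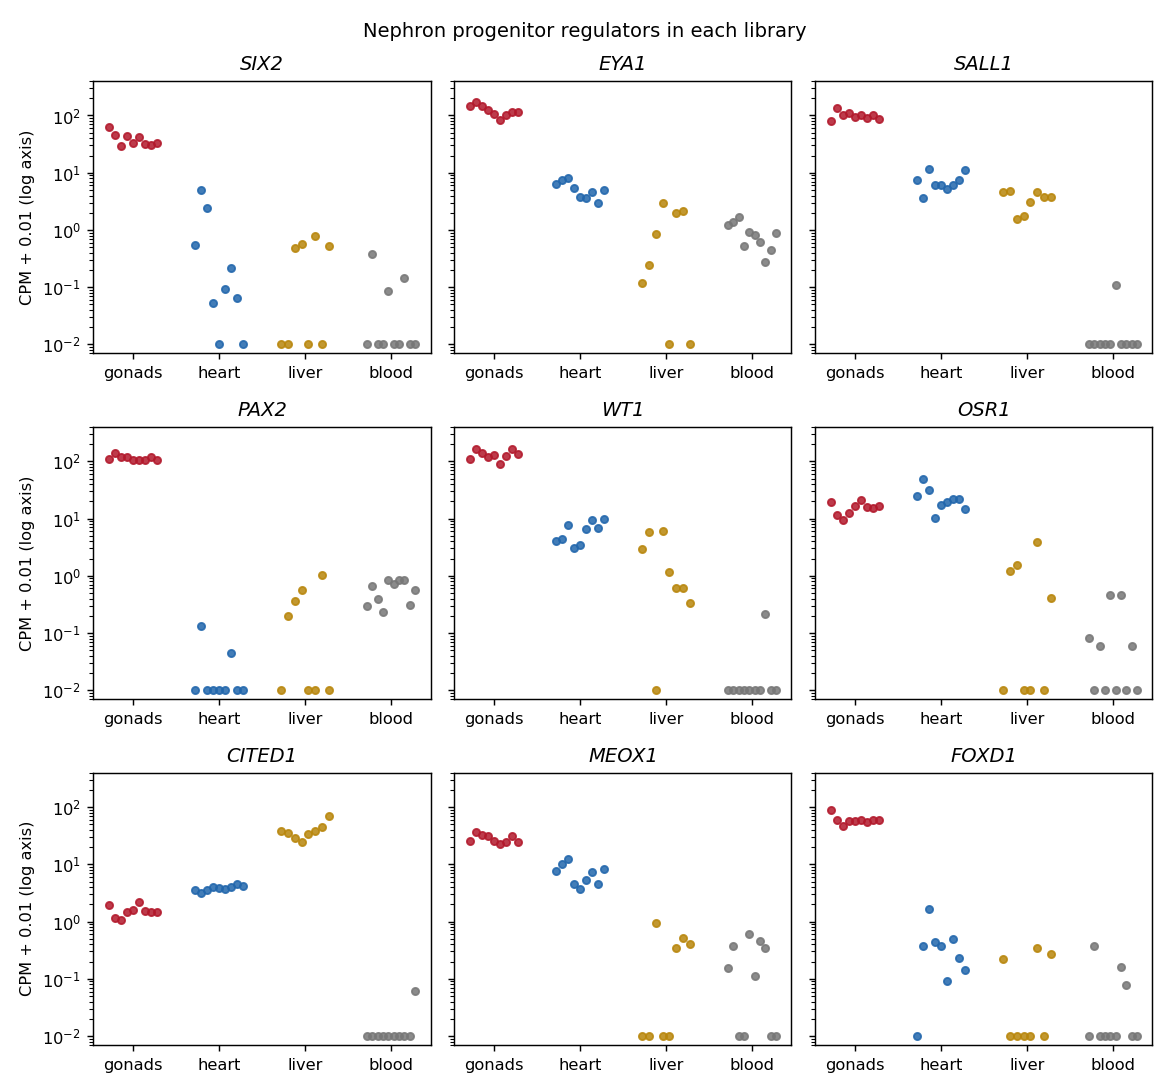
Level of each gene in every library, as CPM + 0.01 on a log axis, for gonads (red), heart (blue), liver (ochre) and maternal blood (grey), with fetuses in order of weight within each group. Points at the bottom are libraries with 0 counts. Gonads lie above all hearts and livers for 7 genes, overlap the heart for OSR1 and lie lowest of the organs for CITED1 with TMM, an order that overlaps between gonads and heart by plain library total. Blood was scaled within blood only.

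Heart against liver holds no gonad library and was not the contrast of the choice, so it was tested. The heart and liver levels were still known when the genes were chosen, so nothing is read from the number of regulators called. With edgeR's quasi-likelihood test, adjusted over all 25095 genes, 6 of the 9 regulators were higher in the heart, where 27.9% of all genes were, and 2 were higher in the liver, where 30.7% were. The 6 were EYA1, SALL1, WT1, OSR1, MEOX1 and FOXD1. The difference was largest for MEOX1, at a log2 fold change of 4.73 (SE 0.547, adjusted p = 1.8e-08), and for OSR1, at 4.71 (SE 0.70, adjusted p = 1.45e-06). EYA1 differed by 2.42 (SE 0.483, adjusted p = 9.8e-05), SALL1 by 1.05 (SE 0.219, adjusted p = 0.000155) and WT1 by 1.52 (SE 0.468, adjusted p = 0.00674).

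FOXD1 was higher in the heart by 2.12 (SE 0.676, adjusted p = 0.0088, edgeR), but it fell to 1.22 (adjusted p = 0.107) without the hearts of fetuses 2 and 3. SIX2 gave 1.70 (SE 0.903, adjusted p = 0.106) and turned to -1.20 without those hearts, so no direction can be given for it. CITED1 was higher in the liver by 3.37 on the log2 scale (-3.37 as heart minus liver, SE 0.182, adjusted p = 2.1e-15). PAX2 was higher in the liver too (-3.77, SE 0.945, adjusted p = 0.00119), on 38 counts against 3, a ratio of 16.6 with a 95% exact binomial interval of 5.26 to 83.9.

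The hearts of fetuses 2 and 3 stood out for several of the regulators at once. They had the highest heart levels of SIX2 (4.93 and 2.40 CPM, others up to 0.534), EYA1 (7.57 and 8.18 CPM, others up to 6.47), MEOX1 (10.0 and 12.2 CPM, others up to 8.21) and OSR1 (48.9 and 31.5 CPM, others up to 24.9). The 9 regulators summed to 82.95 and 78.8 CPM there and to 33.7 to 54.8 CPM in the other hearts. PAX2 did not follow, with 2 counts in fetus 2 and none in fetus 3, and fetus 2 had the lowest heart levels of SALL1 (3.54 CPM) and CITED1 (3.12 CPM). Without OSR1 the sums were 34.1 and 47.2 CPM, against 21.1 to 38.6 CPM in the other hearts, so the sum of fetus 2 stood apart through OSR1. The summed cardiomyocyte markers were 38580 and 30220 CPM in these hearts, and 30560 to 45410 CPM in the others. Mitochondrially encoded genes took 57.3% and 23.5% of the counts in these hearts, against 17.1% to 45.1% in the others, and their part in these levels was not tested.

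Around the 9 genes, lists of other kidney genes were read in the same organ fit, in which 3741 of 25095 genes (14.9%) passed as higher in gonads against heart and also against liver. The 9 regulators are not in these counts, since they were chosen on that contrast, and some genes, such as PAX8 and WNT4, stand in more than 1 list. Of 23 partners of the progenitors, 16 were higher in the gonads than in heart and liver and 2 were lower than in both, with a median log2 difference of 2.47 against the heart and 3.89 against the liver, where all genes had 0.08 and 0.00. MEIS1, a homeobox cofactor, reached 309.6 ± 59.6 CPM (SD, n = 8) in the gonads against 54.7 in the heart and 14.2 in the liver. ROBO2, a SLIT receptor, stood at 154.9 ± 79.5 CPM (SD, n = 8) against 25.6 and 73.2. SLIT2, the ligand, had 129.9 ± 20.2 CPM in the gonads and 96.7 CPM in the heart and did not pass against the heart (log2 fold change 0.42, adjusted p = 0.125, edgeR).

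HOXA11 and HOXD11, homeobox genes of the posterior body that the metanephros needs, reached 36.3 ± 7.68 and 18.1 ± 3.90 CPM in the gonads (SD, n = 8), with HOXD11 at 0 in all hearts and HOXA11 at 0.0124 CPM. Their paralog HOXC11, in the same list, averaged only 0.717 ± 0.398 CPM in the gonads (SD, n = 8), with 0 counts in the lowest. All of these HOX genes are named here after their values were seen. The partners lower in the gonads than in both organs were TMEM100, at 4.15 CPM against 32.6 in the heart and 22.2 in the liver, and CRYM, at 0.924 against 4.29 and 2.46. BMP7, a growth factor, lay between the other organs, at 21.4 CPM in the gonads against 90.9 in the heart and 4.10 in the liver.

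Of the 20 paralogs of the regulators, 7 passed as higher in gonads against each other organ. PAX8, which acts with PAX2 in early nephrons, averaged 4.77 CPM in the heart, 23.1 in the liver and 81.8 ± 10.2 CPM (SD, n = 8) in the gonads. SALL2 had 54.6 ± 6.67 CPM against 21.1 and 11.7, while EYA3 and SIX5 were not higher in the gonads than in the heart, at 41.4 against 46.4 CPM and 31.2 against 50.1 CPM. SIX6 had no count in any gonad.

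Genes of later steps gave mixed counts. Of 13 genes of the renal vesicle and early nephron, 8 passed as higher in gonads against each other organ, among them EMX2 at 32.0 ± 2.92 CPM (SD, n = 8) against 0.219 in the heart and 0.549 in the liver. JAG1, a Notch ligand, was the exception among the most abundant, at 84.2 CPM in the gonads and 213 in the heart. For the ureteric bud, which signals to the progenitors, the count was 9 of 13, with ETV4 at 86.5 ± 31.7 CPM (SD, n = 8) against 11.9 and 2.48. GFRA1, a co-receptor for GDNF, did not pass against the heart (51.7 against 53.7 CPM, adjusted p = 0.737, edgeR), and WNT11, named after its values were seen, was higher in the heart (17.5 against 9.17 CPM). Podocyte genes gave 5 of 10 and renal tubule genes 1 of 11, the tubule exception being SLC12A1, a salt transporter, at 29.8 ± 16.1 CPM against 0.0481 in the heart and 0.516 in the liver. Summed podocyte genes were lower in the gonads, at 224 to 302 CPM, than in the heart, at 403 to 558 CPM, with PODXL at 55.9 against 263 CPM. Summed tubule genes were lower, at 59.1 to 116.7 CPM, than in the heart, at 117.4 to 172.8 CPM, and in the liver, at 205 to 392 CPM. CDH16 alone averaged 154 CPM in the liver, against 4.08 CPM in the gonads.

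The gonad label was checked against genes of the testis. Of 9 Sertoli genes, 1 was higher in the gonads than in both organs, of 7 Leydig genes none, and of 8 germ cell genes 2, beside 14.9% of all genes. The exceptions were CLDN11, a tight junction protein, at 9.55 ± 1.94 CPM, KIT at 27.1 ± 5.19 CPM and PRDM1 at 8.23 ± 1.12 CPM (SD, n = 8). GATA4, a defining factor of gonadal somatic cells, had at most 6 counts in any gonad library (0.0535 ± 0.0430 CPM, SD, n = 8) and 299 CPM in the heart. GATA4 is also a cardiac factor. The mean levels of the 8 other Sertoli genes summed to 19.6 CPM in the gonads, 18.9 in the heart and 11.3 in the liver. Summed Leydig genes ran from 7.51 to 15.6 CPM in the gonads and 10.3 to 25.1 CPM in the heart. Summed germ cell genes ran from 28.3 to 46.3 CPM in the gonads and from 12.4 to 20.7 CPM in the heart. In the liver they ran from 8.99 to 12.1 CPM, apart from 67.7 CPM in fetus 3. The gonad sum was mostly KIT. DDX4, DAZL, POU5F1 and TFAP2C of the same list averaged 0.118, 0.0222, 0.0678 and 0.138 CPM in the gonads. INSL3 and CYP17A1 averaged at or below 0.0584 CPM in the gonads. They were low in the other organs too, INSL3 at 0.301 CPM in the heart and 0.0241 in the liver, and CYP17A1 at 0.106 and 0. INSL3 and CYP17A1, being low in every organ and named after their values were seen, say little about the label. Most other Sertoli and Leydig genes are given here only as sums. The libraries are called gonads here only as their labels do, and which tissue they hold was not tested. Adrenal genes gave 1 of 8 and somite genes 1 of 8, the latter being UNCX at 32.1 ± 9.42 CPM. Cardiomyocyte, hepatocyte, erythroid and endothelial genes gave none, and their sums in the gonads were 7.73 to 16.3, 4.30 to 12.3, 256 to 959 and 181 to 260 CPM. The part of any tissue or cell type in the levels of the 9 regulators was not tested.

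**Figure D2:**
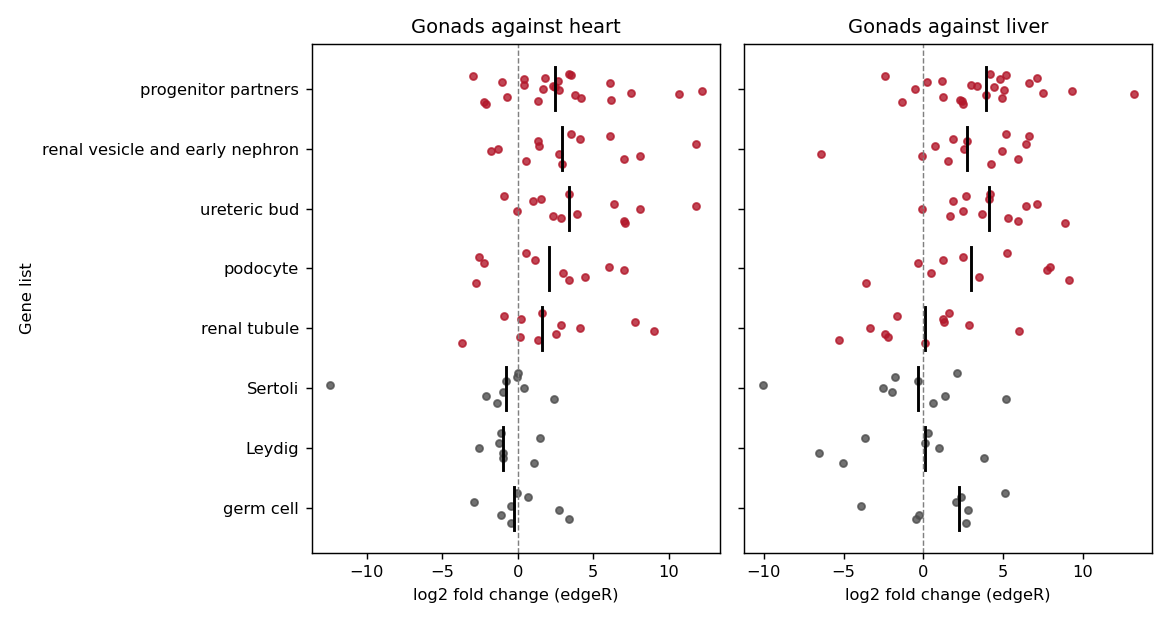
Log2 fold change (edgeR) of every tested gene in 8 lists, gonads against heart (left) and gonads against liver (right). Each point is a gene, the black bar is the list's median, red lists are of the kidney and grey lists of the testis. Medians against the heart are 2.47 for progenitor partners, 2.94 for early nephron and 3.39 for ureteric bud genes, and -0.76 for Sertoli and -0.99 for Leydig genes.

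Within the gonads, the levels of the regulators varied among fetuses about as much as those of other genes. The SD of log2(CPM + 1) over n = 8 had a median of 0.248 for the 9 genes and 0.257 for all 17809 genes tested in the gonads. PAX2 varied least, with an SD of 0.15 (percentile 8.7 of all genes), and OSR1 and SIX2 most, with 0.374 and 0.367 (percentiles 81.5 and 80.5). EYA1 had 0.305, WT1 0.299, MEOX1 0.248, SALL1 0.246, CITED1 0.243 and FOXD1 0.231.

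The genes did not vary together as a single block. PAX2, MEOX1, SALL1, EYA1 and WT1 were all highest in fetus 3, and EYA1, WT1 and MEOX1 were lowest in fetus 7. OSR1 and CITED1 showed the reverse, highest in fetus 7 and lowest in fetus 4. FOXD1 and SIX2 shared a maximum in fetus 1 and a minimum in fetus 4.

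As a description over n = 8 gonads, Pearson's r of log2(CPM + 1) was 0.96 for PAX2 with MEOX1, 0.95 for OSR1 with CITED1, 0.89 for SALL1 with PAX2 and -0.86 for OSR1 with MEOX1. Of the 36 pairs, 12 had r above 0.5 and 10 had r below -0.5. The highest r of SIX2 was with FOXD1 (0.78, Spearman's rho 0.43), while its highest rho was with CITED1 (0.5). Without fetus 1, r with FOXD1 was 0.51 and the highest was with SALL1 (0.71). Without fetus 1, 3 of the 36 values changed sign, and without fetus 7, 1 did. The points share libraries, and so depth and composition: the gonad library of fetus 1 was the shallowest at 22762065 counts, and that of fetus 7 had 7.23% of its counts on mitochondrially encoded genes, against 3.31% to 4.65% in the others. The part of these differences in the correlations was not tested.

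**Figure D3:**
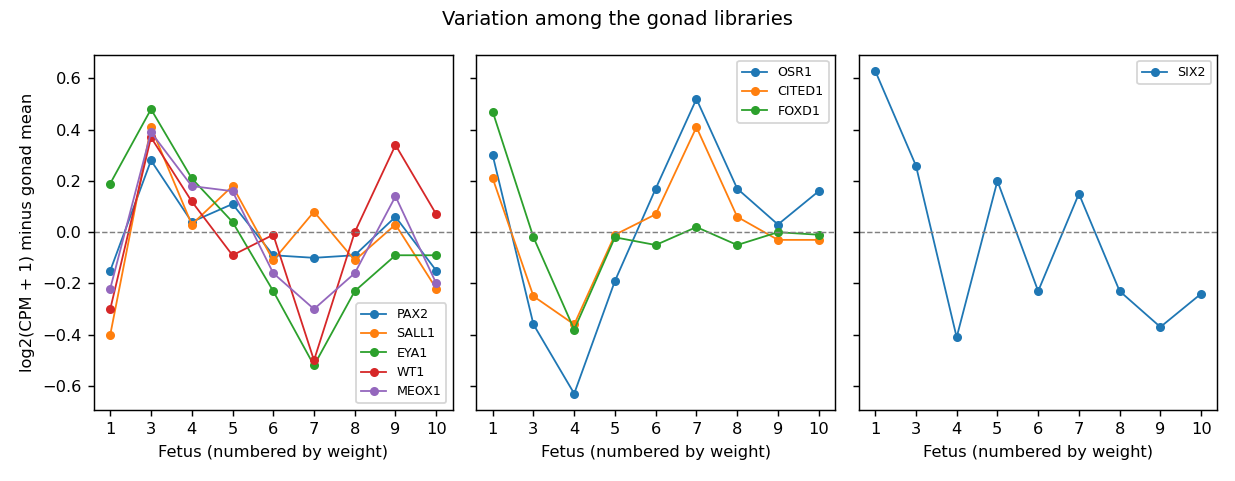
Deviation of each gene from its gonad mean, in log2(CPM + 1), for the 9 gonad libraries in order of fetal weight. The 5 genes on the left peak in fetus 3, OSR1 and CITED1 in the middle panel peak in fetus 7, and SIX2 on the right is highest in fetus 1. Fetuses 6 and 8 hold shared counts.

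**Figure D4:**
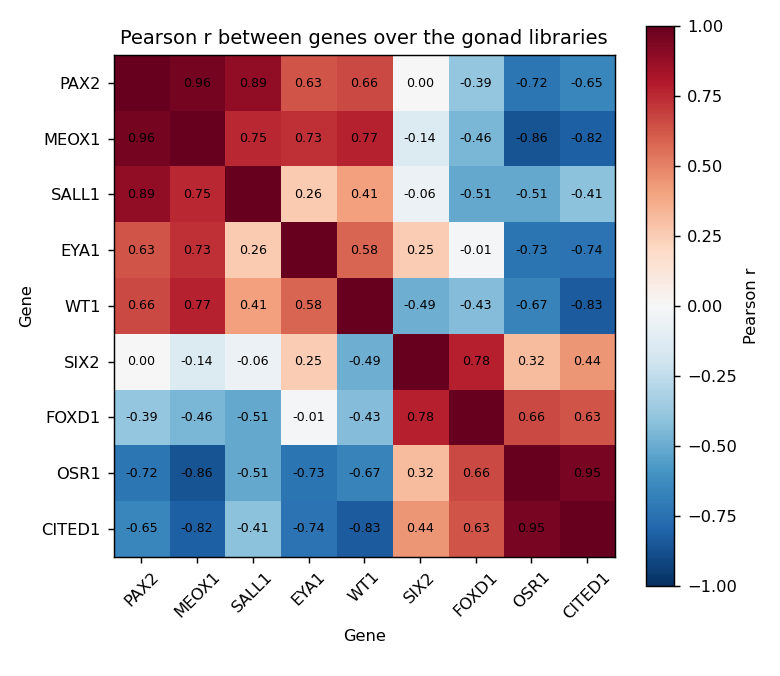
Pearson's r between the 9 genes over the gonad libraries, with fetuses 6 and 8 counted as 1 sample (n = 8). Red is positive and blue negative, from 0.96 for PAX2 with MEOX1 to -0.86 for OSR1 with MEOX1.

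By a fixed rule, the 5 genes closest to SIX2 over the 9 gonad libraries were C22H3orf22 (r 0.996), LOC101904071 (0.991), CMIP (0.991), ARHGAP33 (0.988) and NDE1 (0.988). The closest to WT1 were NFXL1 (0.993), CBLN3 (0.992), HERPUD2 (0.990), ARHGEF38 (0.990) and ZC3H6 (0.987). With 17809 genes compared over so few libraries, such values are a ranking only, and neither list held another of the 9 regulators.

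The study asked how expression follows fetal weight, and this was tested in the 9 gonad libraries with edgeR. No regulator passed. With a natural cubic spline of weight (3 degrees of freedom), 0 of the 9 had an adjusted p under 0.05, as did 0 of all 17809 genes (0%). At an unadjusted p under 0.05 the spline took 0 of the 9 and 12.6% of all genes, with the lowest unadjusted p among the regulators at 0.0609 for EYA1. With a straight line, 0 of the 9 and 0% of all genes passed after adjustment, and 1 of the 9 and 5.62% of all genes had an unadjusted p under 0.05. That gene was SIX2, which changed by -0.155 on the log2 scale per 0.1 g (SE 0.0634, adjusted p = 0.849). Its level was 62.7 CPM in the lightest fetus and 32.9 CPM in the heaviest, and the slope was -0.091 without fetus 1 and -0.15 (SE 0.0738, adjusted p = 1, edgeR) without fetuses 6 and 8. The other slopes ran from -0.108 for EYA1 to 0.066 for OSR1, and the median over the 9 was -0.027, against -0.003 over all genes.

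The spline counts depended on single libraries and on the tool. DESeq2 called 1358 genes, edgeR called 1501 without fetus 8, 905 without fetus 7, and 3082 without the shared libraries of fetuses 6 and 8. Over the 14 alternatives to the spline, OSR1 was the only regulator called, with an adjusted p of 0.0257 in the edgeR fit without fetuses 6 and 8, and its adjusted p ran up to 0.672 in the others.

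All ET_D7 fetuses were lighter than all ET_D9 fetuses, so weight and transfer group varied together. Between the transfer groups, 0 of the 9 regulators passed, against 63 of 17809 genes (0.354%), and 1 of 9 had an unadjusted p under 0.05, against 18.5% of all genes. That gene was EYA1. In the ET_D7 gonads it had 147.0 CPM in fetus 1, 171.9 in fetus 3, 144.2 in fetus 4 and 123.6 in fetus 5, and in the ET_D9 gonads 104.2 in fetus 6, 84.3 in fetus 7, 100.8 in fetus 8, 117.2 in fetus 9 and 116.5 in fetus 10. The groups did not overlap, a separation that 8.23% of all genes had. The means were 146.7 ± 19.8 and 105.1 ± 15.5 CPM (SD, n = 4 each), a log2 difference of ET_D9 minus ET_D7 of -0.47 (SE 0.126, adjusted p = 0.106, edgeR). DESeq2 gave -0.44 with an adjusted p of 0.0338. With fetuses 6 and 8 counted as 1 sample, edgeR gave -0.43 (SE 0.149, adjusted p = 0.278), and 2 genes in all were called instead of 63. Over its 14 alternatives EYA1 kept its sign, from -0.53 to -0.37.

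The 8 other regulators overlapped between the transfer groups. SIX2 had 45.3 ± 13.8 CPM in ET_D7 and 34.1 ± 5.24 CPM in ET_D9 (SD, n = 4 each), and OSR1 had 13.2 ± 4.26 and 17.4 ± 2.55 CPM. Their log2 differences were -0.40 (SE 0.196, adjusted p = 0.310, edgeR) and 0.42 (SE 0.193, adjusted p = 0.284, edgeR). WT1 and FOXD1 lay closest to 0, at -0.04 and -0.06. The median over the 9 was -0.15, against 8e-04 over all genes.

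**Figure D5:**
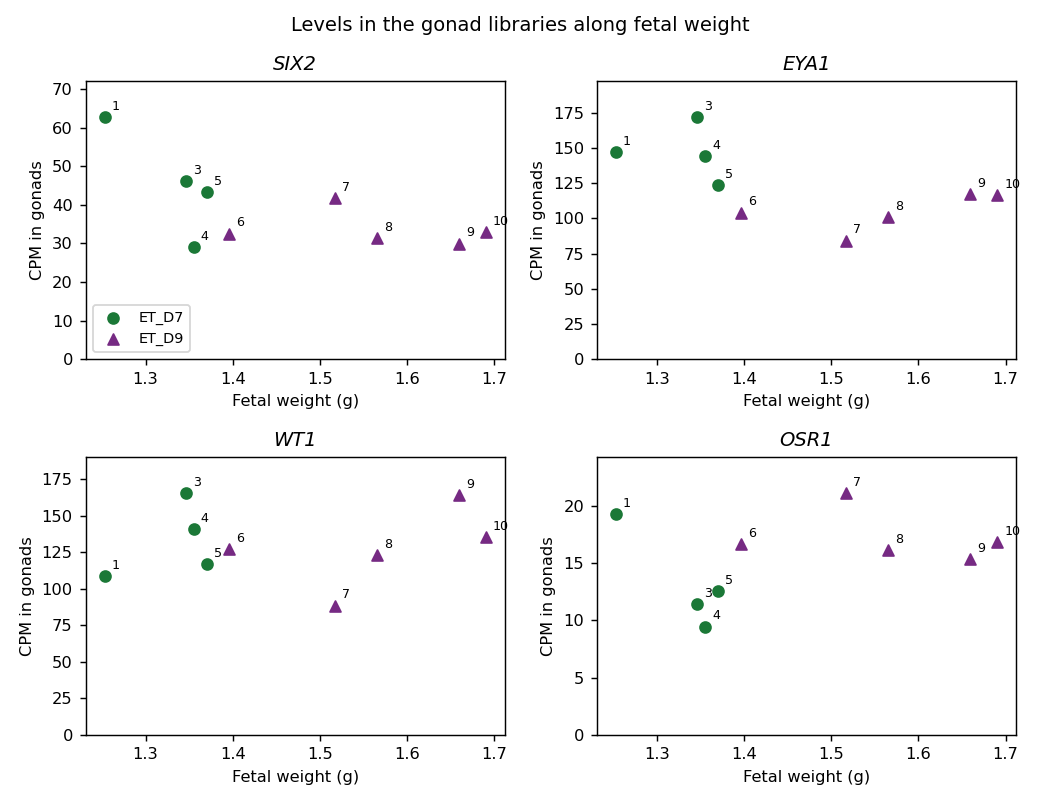
Level in CPM of SIX2, EYA1, WT1 and OSR1 in the 9 gonad libraries against fetal weight in g, with ET_D7 as green circles and ET_D9 as purple triangles. Numbers are the fetuses. EYA1 is the gene whose transfer groups do not overlap, and fetus 1 holds the highest SIX2 level at 62.7 CPM.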

How the data were processed

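RNA of 9 hearts, 9 gonads, 8 livers and 10 maternal blood samples had been sequenced. The authors trimmed reads with Trimmomatic, aligned them to ARS-UCD1.3 using STAR 2.7.0b, and deposited whole-number counts per gene from featureCounts (Subread 2.0.3). Strand and multi-mapping options are not given in the sources used here, so overlapping or near-identical genes are uncertain.

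Groups, weights and fetuses came from the sample labels. Of 35092 Entrez identifiers, 31630 had a RefSeq symbol, and 164 of 166 listed symbols matched. The 9 genes, the lists and the tests were chosen with earlier results of these data known. The genes named were the 9, the 4 most abundant genes in the gonads of each list, genes opposite to a list's name, and the 5 genes most like SIX2 and WT1. A gene that this rule names is not reported here. BMP7, SIX6, INSL3, CYP17A1, HOXA11, HOXC11, HOXD11, CDH16, DDX4, DAZL, POU5F1 and TFAP2C were named from these lists after their values were seen.

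Counts were scaled with TMM and tested with edgeR 4.0.16 in R 4.3.3, with Benjamini-Hochberg adjustment over all genes with at least 1 count in the organs, or with at least 10 counts in 4 gonad libraries. Calls needed an adjusted p under 0.05. P-values weigh a difference against the spread between these libraries, which the main organ fit treated as independent. Fits used all libraries, including the pairs with shared counts, with re-fits that counted them once or left them out. Libraries of the same fetus came from the same animal, but their deviations hardly correlated (median r 0.11 for gonad with heart, 0.03 for gonad with liver and 0.02 for heart with liver), and the fetus entered as a block in an alternative. DESeq2 1.42.0, other scalings, filters, covariates and left-out libraries were alternatives. Scripts were tested on simulated data. Coordinates and sequences were not used here.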

Additional observations from a re-analysis of the deposited data

Results flagged for a closer look

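In 10 of the 36 sets of values examined (9 genes in 4 groups), 1 library stood apart from the rest of its group by Dixon's criterion. Its nominal chance rate of about 1 group in 20 does not apply to sets with many values at 0. Several of the 10 are such sets, so their number is not compared with that rate. In the gonads, FOXD1 was 87.4 CPM in fetus 1, with the next value at 60.6. In the heart, SIX2 was 4.93 CPM in fetus 2 (next 2.40), PAX2 was 0.120 CPM in fetus 2 (next 0.0349) and FOXD1 was 1.67 CPM in fetus 3 (next 0.488). In the liver, OSR1 was 3.88 CPM in fetus 8 (next 1.53).

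The other 5 were in maternal blood at very low levels. SIX2 and FOXD1 were both 0.370 CPM (16 counts each) in the blood of the heifer carrying fetus 2, with next values of 0.134 and 0.151. SALL1 was 0.101 CPM with fetus 6, WT1 was 0.201 CPM with fetus 8 and CITED1 was 0.0507 CPM with fetus 10, each with 0 in the other 9 blood libraries. Where 9 of 10 values are 0, any count stands apart by this criterion, so the chance rate does not apply to these 3. Zeros were also common for SIX2 and FOXD1 in blood (7 of 10 libraries each), PAX2 in the heart (7 of 9) and OSR1 in the liver (4 of 8).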

How the results depend on the processing

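The number of genes with separated levels was 7 under every scaling tried, and no regulator was called along a straight line of weight in any alternative. Requiring a log2 fold change above 1 left 2073 genes higher in the gonads, against 3741. The spline called 0 genes with edgeR, 1358 with DESeq2, 3082 without the gonads of fetuses 6 and 8, and 0 to 1501 with each gonad left out. The transfer groups differed in 63 genes, and in 6 with DESeq2 size factors, 3 with no filter, 6 without mitochondrially encoded genes, 940 with DESeq2, 2 with shared libraries counted once, and 0 to 386 with each gonad left out. The linear fit gave 0 genes in each alternative, and at an unadjusted p under 0.05 it gave 12 genes with transfer group as a covariate, 1637 with no filter and 1502 by weight rank, against 1001. Causes were not tested.

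Some directions turned. OSR1's log2 ratio of gonad to heart was 0.47 by library total, and that of CITED1 moved to -0.29. SIX2 heart minus liver was -1.20 without the hearts of fetuses 2 and 3. With transfer group as a covariate the slopes became 0.068 for EYA1, 0.050 for SALL1, 0.044 for PAX2, -0.147 for OSR1, -0.161 for CITED1 and 0.10 for MEOX1. With each gonad left out, slopes ran from -0.09 to 0.01 for SALL1, -0.007 to 0.071 for WT1, -0.008 to 0.086 for CITED1 and -0.064 to 0.038 for FOXD1, and transfer differences from -0.14 to 0.09 for WT1 and -0.18 to 0.12 for FOXD1. The spread among gonads had a median of 0.241 to 0.265.

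In the paired fit with the fetus as a replicate block, 12273 genes differed between heart and liver, against 14694, and 3448 were higher in the gonads. The block changed no call of a regulator: for SIX2 it gave 0.59 (adjusted p = 0.687, edgeR) and for EYA1 2.65 (adjusted p = 0.000462). Low counts limit PAX2 and FOXD1 in heart and liver, and SIX2 and MEOX1 in the liver.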

Other observations

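In maternal blood, PAX2 and EYA1 were the regulators with a count in all 10 libraries, at 0.560 ± 0.244 and 0.867 ± 0.445 CPM (SD, n = 10), scaled within blood. PAX2 ran from 6 to 28 counts and EYA1 from 8 to 69. Of the blood values of the 9 genes between 1 and 100 counts, 37 of 40 were even numbers. CITED1, the most abundant of the 9 in the liver, had 2 counts in all of the blood libraries together.

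Among the other lists in the gonads, 5 of 10 podocyte genes and 4 of 9 tested tubule genes had an unadjusted p under 0.05 along the straight line of fetal weight, where 5.62% of all genes did, and none passed after adjustment over all genes. Their median slopes were 0.11 and 0.17 on the log2 scale per 0.1 g, against -0.03 for the 23 progenitor partners.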
